A study of Mus musculus with 11 samples.

Results

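The TIM genes encode a small family of surface receptors of immune cells, and the arrays carried 6 probes for the 4 mouse members Havcr1, Timd2, Timd4 and Havcr2, of 39429 probes in all. The members were chosen by name, as every non-control probe that the scanner files assign to one of these genes. Havcr1 led the choice because it was selected on its difference between lymphoma types in these same arrays, so its values are a description here and carry no test. The RNA came from 11 lymph node lymphomas of mice of the Black 6 strain with the genotype c-myc-3'RR/p53+/-, which the labels place at the mature B cell stage. These mice carry a c-myc transgene under the 3' regulatory region of the heavy chain locus, which is active in cells of the B lineage, together with 1 intact copy of p53. There were 4 tumours labelled plasma cell lymphoma (PCL), 3 labelled mantle cell lymphoma (MCL) and 4 labelled Burkitt lymphoma (BL), and a name such as PCL1 gives the type and replicate number. All 3 groups shared the transgene, the p53 genotype, the strain and the tissue, and no normal B cells and no tumours without the transgene were analysed here.

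TIM receptors have an immunoglobulin-like domain, which in most members binds phosphatidylserine, a lipid that dying cells expose, on a mucin-like stalk above a membrane anchor. Havcr1 encodes TIM-1, a costimulatory receptor of helper T cells that also marks B cells with regulatory function and injured kidney tubules. Timd2 encodes TIM-2, a mouse receptor for ferritin and Sema4a found on B cells, Timd4 encodes TIM-4, with which macrophages tether dying cells, and Havcr2 encodes TIM-3, an inhibitory receptor of exhausted T cells that myeloid cells also carry.

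The 4 genes lie in a cluster on chromosome 11, where the probes span 362558 bases of mouse build mm9. Havcr1 had a probe at chr11:46569677-46569736 and another at chr11:46592056-46592115, both on the plus strand and 22379 bases apart, named here the 5' and the 3' probe. Both sequences are printed because these are the readouts on which the Havcr1 values rest, and the capitals mark the stop codon at the end of the coding sequence.
Havcr1 5' probe: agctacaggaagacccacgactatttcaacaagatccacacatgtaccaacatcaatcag
Havcr1 3' probe: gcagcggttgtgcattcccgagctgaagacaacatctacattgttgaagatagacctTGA
The 5' probe was designed on a TIM1 transcript of the BALB/c strain, per the annotation in the files, and whether it matches the Black 6 sequence at every base was not analysed here. Timd2 had a 5' probe at chr11:46483558-46483617 and a 3' probe at chr11:46482531-46482590, both on the minus strand. Havcr2 had a single probe at chr11:46294675-46294734 and Timd4 a single probe at chr11:46657173-46657232, both on the plus strand. Each probe was present as 1 spot per array.

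Levels are log2 values relative to the 75th percentile of the array, so 0 is the brightness at that percentile, and each probe is compared only with itself. The share of spots well above background ran from 55.5% to 62.8% over the arrays and the 75th percentile from 1067 to 1632 intensity units, and precision is limited by how many arrays there were. The B cell marker Cd79a was well above background in every tumour. Sdc1, the plasma cell marker, was at -1.02 to -0.32 in PCL2, PCL3 and PCL4 but at -3.25 in PCL1, within the ranges of the MCL (-4.14 to -2.50) and the BL (-5.26 to -3.16). Jchain and Prdm1 did not set PCL1 apart in this way: Jchain was at 0.47 in PCL1, above every MCL and BL, and Prdm1 at -0.68 was the highest of the 11 tumours. The median of the 8 plasma cell markers was 0.19 in PCL1 and 0.49 to 1.26 in the other PCL, against -1.28 to -0.58 in the MCL and -1.85 to -0.37 in the BL, whereas their summed linear level was 34.4 in PCL1 against 63.5 to 66.4 in the other PCL and 29.8 to 43.0 in the MCL and BL. PCL1 also stood apart in macrophage RNA: the summed linear level of 16 macrophage and monocyte markers was 2.62 in PCL1 against 14.3 to 31.9 in the other PCL, 1.82 to 4.94 in the MCL and 3.04 to 8.83 in the BL. BL2 stood apart from the other BL in Havcr1, Timd2 and Timd4, and the results that rest on PCL1 or BL2 are given with and without them. Each type lay on 1 slide of its own, so type and slide cannot be told apart. The labels do not say that the tumours came from separate mice, so p-values measure the spread between these samples only, which may be technical.

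Havcr1 and Timd2 were low in the 4 PCL and in BL2 and high in the 3 MCL and in BL1, BL3 and BL4. On the Havcr1 5' probe the PCL lay at -4.53, -3.50, -5.15 and -7.31 for PCL1 to PCL4. The MCL lay at 1.04, -1.07 and 0.65, and the BL at 1.79, -4.38, 0.08 and 1.01. All 3 MCL were therefore above all 4 PCL, whereas BL2 fell inside the PCL range. In intensity units the same spots ran from 8.83 in PCL4, where the software had set a substitute value because the spot was not above background, to 4246 in BL1. PCL3 was also not well above background, and the other 9 tumours were.

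The mean Havcr1 level was -5.12 ± 1.61 (SD, n = 4) in PCL, 0.21 ± 1.12 (n = 3) in MCL and -0.37 ± 2.76 (n = 4) in BL. The order of the types was therefore MCL, BL and PCL, and the gap between MCL and BL was smaller than the spread within BL. The PCL minus MCL difference was -5.33 ± 1.40 (SE) and the PCL minus BL difference -4.75 ± 1.29, which became -6.08 without BL2. The MCL minus BL difference was 0.58 ± 1.40 with a 95% confidence interval from -2.53 to 3.69, and it turned to -0.76 without BL2. Of the cells other than B cells that carry TIM-1, the T cell markers summed to 4.06 to 5.67 in PCL, 5.82 to 14.7 in MCL and 2.98 to 10.4 in BL. Their median log2 levels were -2.51 to -1.07 in PCL, -4.13 to -1.02 in MCL and -4.43 to -1.07 in BL. By the median MCL2 and MCL3, at -3.24 and -4.13, lay below every PCL, unlike by the sum. Cd5, which is also among the regulatory B cell genes below, enters both. The part of T cells in the Havcr1 values was not tested. The proximal tubule markers summed to 0.14 to 0.38 in all tumours. Of the 6, Slc34a1, Cubn and Slc22a6 were well above background on all 11 arrays and Miox on 10, while Lrp2 and Slc5a2 were so on none. Miox, an enzyme of inositol breakdown in the tubule, was lower in PCL than in MCL by -0.88 ± 0.17 (SE, limma, adjusted p = 0.0199). It was the 1 called of 4 tubule markers that passed the filter, against 4.75% of all genes lower in PCL. The part of such markers in the Havcr1 values was not tested.

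The 3' probe of Havcr1 gave the same order of mean levels between types, but most PCL could not be measured on it. It was well above background in 1 of 4 PCL, in all 3 MCL and in 3 of 4 BL. Its levels were -6.62, -6.67, -3.15 and -7.69 in PCL1 to PCL4. They were -0.96, -3.86 and -2.90 in the MCL and -1.84, -6.76, -3.91 and -1.32 in the BL. PCL3 was the exception on this probe, above MCL2, BL2 and BL3, so that PCL and MCL overlapped. The PCL3 spot had a local background of 511.5 intensity units, against 19 to 29 around this spot on the other arrays, and its part in the PCL3 value was not tested. The fitted differences on this probe were -3.46 ± 1.42 (SE) for PCL minus MCL, -2.58 ± 1.31 for PCL minus BL and 0.89 ± 1.42 for MCL minus BL. Since the readings of PCL1, PCL2, PCL4 and BL2 lie near background, the sizes of these differences are not comparable with those on the 5' probe.

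Timd2, which codes for the ferritin receptor TIM-2, followed the same tumours. Its 5' probe read -2.25, -1.20, -2.71 and -7.53 in PCL1 to PCL4. It read 2.59, 1.81 and 3.43 in the MCL and 3.31, -2.22, 3.17 and 4.11 in the BL. BL2 lay far below the next lowest BL, BL3, and again within the PCL range. The spread in intensity units was from 7.56 in PCL4, a substitute value, to 24812 in BL4, and the Timd2 5' probe was well above background in every tumour but PCL4. The Timd2 3' probe read -4.45, -4.29, -7.26 and -7.71 in the PCL, -0.15, -1.78 and -0.49 in the MCL and -1.23, -5.43, -0.30 and 0.96 in the BL, where PCL3 and PCL4 are substitute values. On this probe too all MCL were above all PCL and BL2 lay among the PCL.

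Timd2 averaged -3.42 ± 2.81 (SD, n = 4) in PCL, 2.61 ± 0.81 (n = 3) in MCL and 2.09 ± 2.90 (n = 4) in BL on its 5' probe. Its PCL minus MCL difference of -6.03 ± 1.72 (SE) had an adjusted p of 0.0643 in limma over all 20176 genes tested, and was not called at the threshold of 0.05. The adjusted p was 0.0352 without BL2, with the same difference. BL2 stood out by its own low level on this probe, and leaving it out narrows the spread that the types share. Nothing is therefore read from the p-values without BL2. The PCL minus BL difference was -5.51 ± 1.59 (limma, adjusted p = 0.118), and -6.95 without BL2 (adjusted p = 0.0778). For MCL minus BL the Timd2 difference was 0.52 ± 1.72 (limma, adjusted p = 0.913) with a 95% confidence interval from -3.30 to 4.34, and it turned to -0.92 without BL2. The 3' probe, in a limma fit over all probes, gave -5.12 ± 1.41 (adjusted p = 0.0625), -4.43 ± 1.31 (adjusted p = 0.125) and 0.69 ± 1.41 (adjusted p = 0.862) for the same comparisons.

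**Figure D1:**
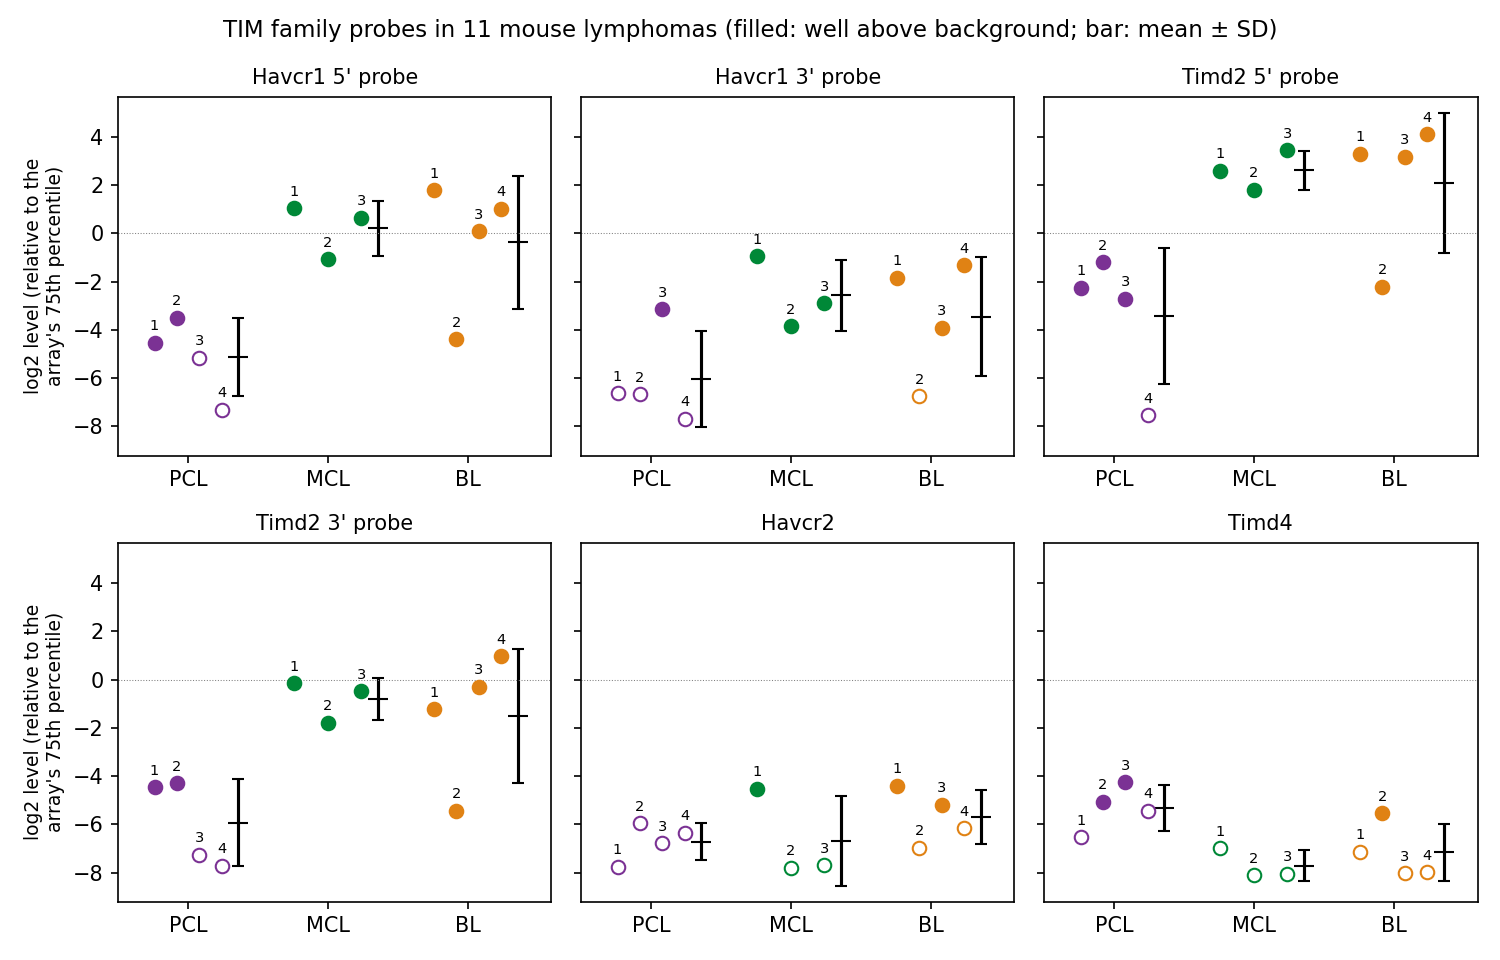
Log2 level, relative to the 75th percentile of the array, of each TIM probe in the 11 tumours, with numbered points for the tumours of PCL, MCL and BL, filled where the spot was well above background, and a bar for the mean ± SD. The Havcr1 and Timd2 5' probes are low in the 4 PCL and in BL2, while Havcr2 and Timd4 lie near the bottom of the scale with 3 filled points each.

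Timd4, the receptor with which macrophages hold dying cells, ran the other way at a low level. Its probe read -6.53, -5.06, -4.25 and -5.44 in PCL1 to PCL4. It read -6.98, -8.11 and -8.04 in the MCL and -7.12, -5.53, -8.02 and -7.98 in the BL. All 4 PCL were above all 3 MCL, and BL2 was once more within the PCL range. Only PCL2, PCL3 and BL2 were well above background, which is exactly the 3 arrays that the filter on dim probes asked for, so Timd4 entered the tests through the tumours in which it was high. MCL2, MCL3, BL3 and BL4 held substitute values. The PCL3 spot, the highest reading, had a local background of 64 intensity units against 18.5 to 28 on the other arrays, and its part in that reading was not tested.

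Timd4 averaged -5.32 ± 0.94 (SD, n = 4) in PCL, -7.71 ± 0.64 (n = 3) in MCL and -7.16 ± 1.16 (n = 4) in BL. The PCL minus MCL difference of 2.39 ± 0.67 (SE) was not called (limma, adjusted p = 0.0625). No MCL was well above background on this probe, so the ratio could not be measured. The PCL mean was 1.63-fold above the lowest signals well above background on the MCL arrays, taken over all probes. This is not a lower limit, since PCL1 and PCL4, which enter the PCL mean, were not well above background either. PCL minus BL was 1.84 ± 0.62 (limma, adjusted p = 0.169) and MCL minus BL was -0.55 ± 0.67 (adjusted p = 0.742). Without BL2 these differences were 2.39 and -0.0057. Because of how Timd4 entered the tests and because most of its readings lie at background, these p-values are listed as computed and nothing is read from them, nor from the calls without PCL1 or without BL2 for PCL minus MCL. The macrophage markers named above were summed at 14.3 to 31.9 in PCL2 to PCL4 but at 2.62 in PCL1 and 3.52 in BL2, and their part in the Timd4 values was not tested. In bulk tumours fewer cells of a type and less RNA per cell cannot be told apart.

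Havcr2, the inhibitory receptor TIM-3, was near background in all 3 types and gave no call. Its probe read -7.76, -5.96, -6.77 and -6.36 in the PCL. It read -4.52, -7.79 and -7.70 in the MCL and -4.40, -6.97, -5.19 and -6.17 in the BL. MCL1, BL1 and BL3 were the only tumours well above background, again exactly the 3 that the filter required, and the types overlapped in every comparison. The summed T cell markers were 14.7 in MCL1, 10.4 in BL1 and 5.47 in BL3, against 2.98 to 9.85 in the other tumours. Their median log2 levels were -1.02, -1.18 and -1.07 in MCL1, BL1 and BL3. They were -4.43 to -1.07 in the other tumours, highest in PCL3, where Havcr2 was not well above background. The macrophage sum was 4.94 in MCL1, 3.25 in BL1 and 8.83 in BL3. It was highest in PCL2, PCL3 and PCL4, at 31.9, 14.3 and 19.8, in none of which Havcr2 was well above background. The part of these cells in the Havcr2 values was not tested.

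Havcr2 averaged -6.71 ± 0.78 (SD, n = 4) in PCL, -6.67 ± 1.86 (n = 3) in MCL and -5.68 ± 1.12 (n = 4) in BL. PCL minus MCL was -0.04 ± 0.86 (limma, adjusted p = 0.982). With 0 of 4 PCL and 1 of 3 MCL well above background and 4 substitute values on the probe, this sets no limit on the size of the difference. PCL minus BL was -1.03 ± 0.80 (adjusted p = 0.546) and MCL minus BL was -0.99 ± 0.86 (adjusted p = 0.627). The sign of PCL minus MCL turned under normexp background correction (0.63), under array weights (0.71), without PCL1 (0.31) and without MCL1 (1.04), and that of PCL minus BL under normexp (0.02).

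Of the 3 members tested, 0 were called between PCL and MCL, where limma called 6.85% of all genes. Between PCL and BL 0 of the 3 were called against 0.659% of all genes, and between MCL and BL 0 of the 3 against 6.63%. At an unadjusted p under 0.05 limma passed 2 of the 3, Timd2 and Timd4, between PCL and MCL, against 24.3% of all genes, and between PCL and BL, against 17.6%. It passed 0 of the 3 between MCL and BL, against 18.4%. These counts support nothing about the family, since Timd4 and Havcr2 passed the filter on 3 arrays each. The tumours of PCL and MCL did not overlap for Havcr1, Timd2 and Timd4, 3 of the 4 members, as for 22.8% of all genes, and Havcr1 was chosen on this contrast. On the Havcr1 3' probe they did overlap. For Timd4 the order of PCL1 and the MCL rests on readings not well above background. In each of the other comparisons the tumours overlapped for all 4 members, where 11% of all genes did not overlap between PCL and BL and 17.7% did not between MCL and BL.

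**Figure D2:**
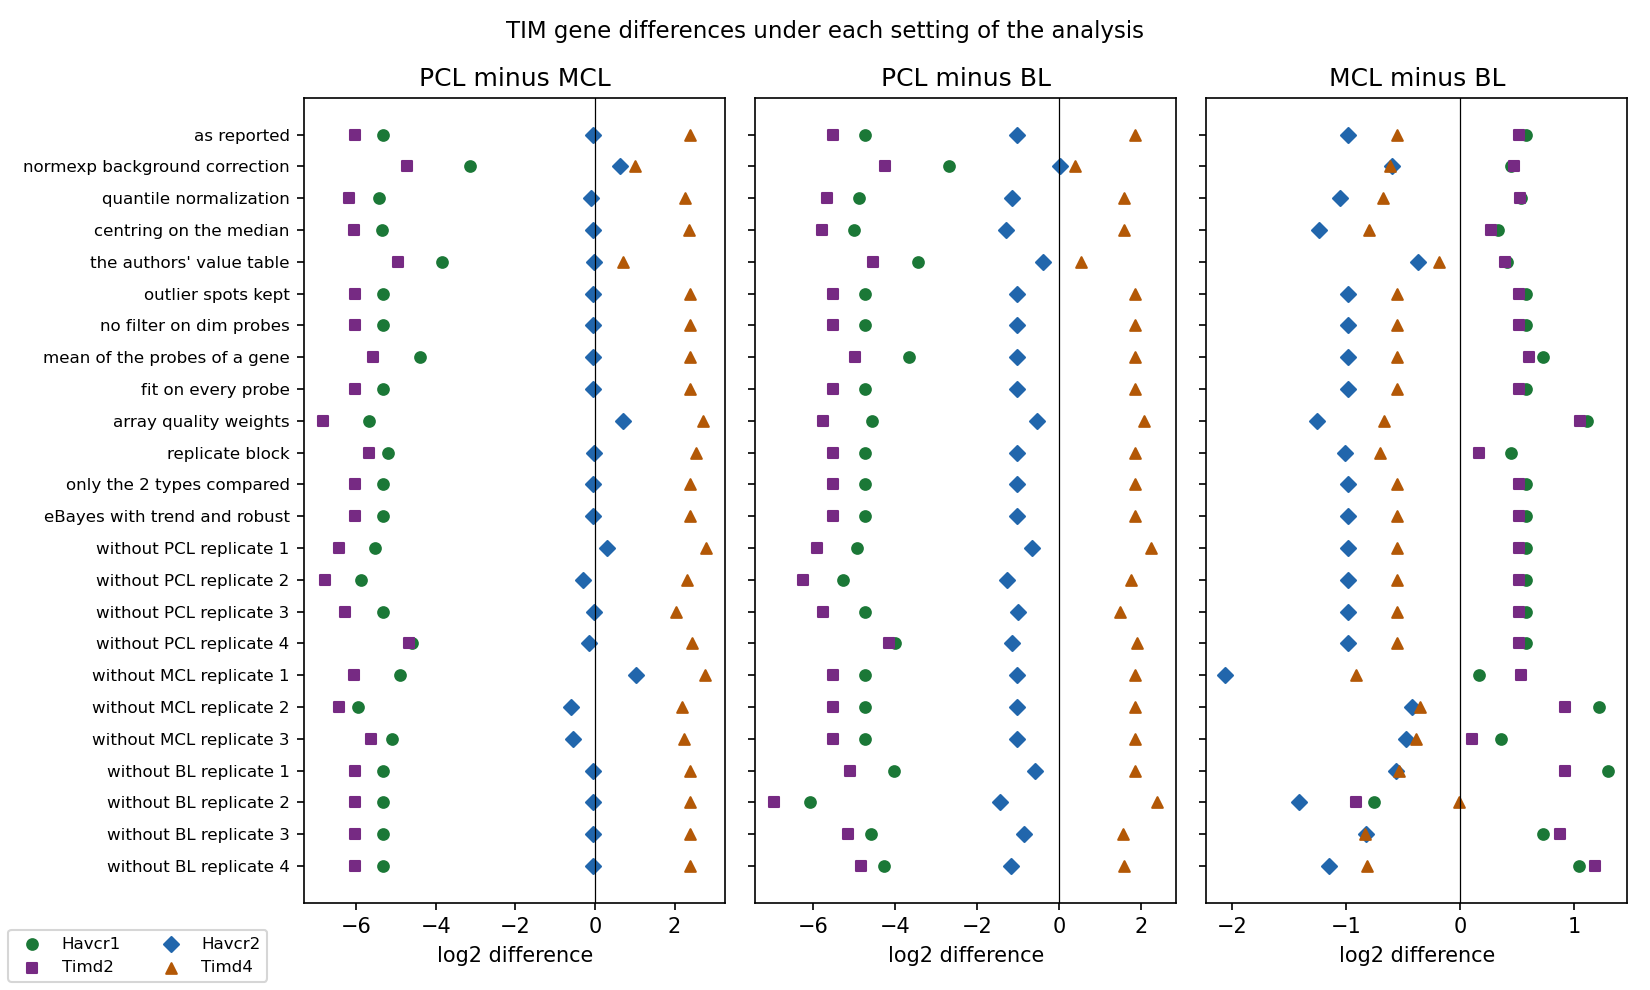
Difference in log2 level between types (horizontal axes) for the 4 TIM genes as reported and under 23 other settings or with 1 tumour left out (vertical axis). Havcr1 and Timd2 stay below 0 and Timd4 above 0 in both comparisons with PCL, while Havcr2 crosses 0, and leaving out BL2 turns Havcr1 and Timd2 between MCL and BL.

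Timd2 followed Havcr1 over the tumours more closely than any other named gene that was ranked. Among 2538 named genes that varied with an SD of at least 1 over the 11 tumours, Timd2 ranked 1 by Pearson correlation with the Havcr1 5' probe (r = 0.97, Spearman rho = 0.90). The points share arrays and 75th percentile, and they form a low set, the 4 PCL and BL2, and a high set, the other MCL and BL, so most of this r is the gap between the sets. Within the 6 tumours of the high set r was 0.66. Other pairs of probes gave less in that set. It was 0.41 for Havcr1 5' with Timd2 3', 0.41 for Havcr1 3' with Timd2 5' and 0.53 for the 3' probes. Against the Havcr1 3' probe Timd2 ranked 2 (r = 0.81), and the other genes named for Havcr1 ranked between 17 and 40.

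**Figure D3:**
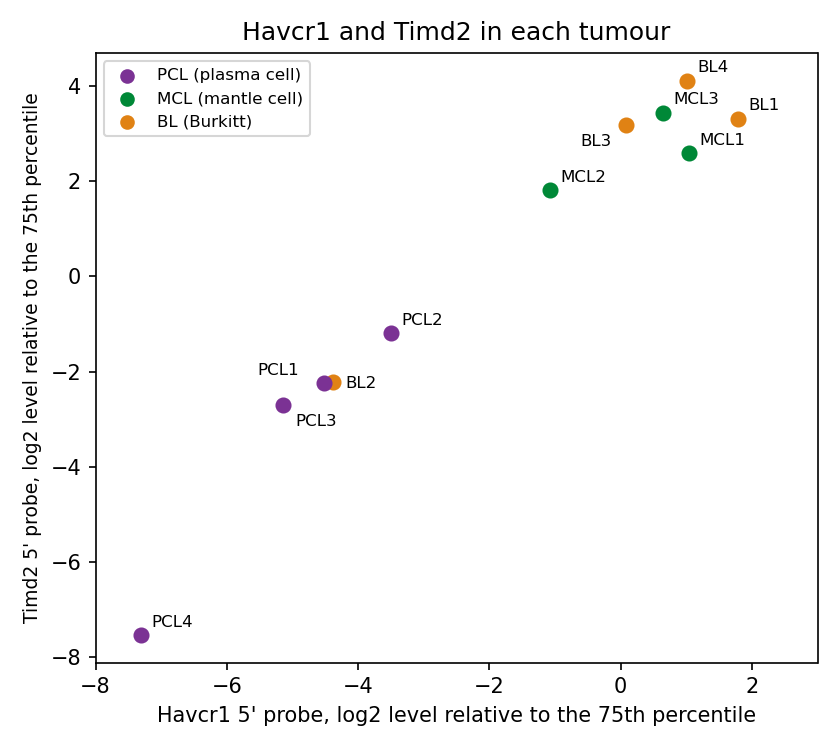
Log2 level of the Timd2 5' probe (vertical axis) against the Havcr1 5' probe (horizontal axis), both relative to the 75th percentile of the array, 1 point per tumour. BL2 lies beside PCL1 at -4.38 and -2.22, PCL4 lies lowest at -7.31 and -7.53, and the 3 MCL and the other BL lie at the upper right.

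The next genes by likeness to Havcr1 were Iglon5, a neuronal adhesion molecule (r = 0.92), Serpinc1, which encodes antithrombin (r = 0.90), Tcstv3, a gene of the early embryo (r = 0.89), and Inpp4a, a phosphoinositide phosphatase (r = 0.88). Iglon5 averaged -4.42 in PCL, 1.87 in MCL, 0.66 in BL and -3.05 in BL2. Serpinc1 did not share the low BL2, at 0.27 against a BL mean of 1.07, and its r rose to 0.96 without BL2. For Timd2 the list after Havcr1 was Iglon5 (r = 0.94), Il21r, the receptor of interleukin-21 (r = 0.92), Samsn1, an adaptor that restrains B cell activation (r = 0.90), and Tcstv3 (r = 0.88).

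Timd4 was most like Akr1c13, an aldo-keto reductase (r = 0.96), Atp6v0d2, a proton pump subunit of osteoclasts and macrophages (r = 0.93), Akr1c12 (r = 0.91), the immunoglobulin gamma chain probe Ighg (r = 0.90) and Lfng, a modifier of Notch receptors (r = 0.90). Akr1c13 averaged -1.19 in PCL, -6.04 in MCL and -4.19 in BL, with BL2 at -2.20. Ighg averaged -1.45, -6.65 and -5.96, with BL2 at -2.17. Each gene named for Timd4 was highest in BL2 among the BL, which follows in part from its choice by correlation with Timd4 over these tumours. Akr1c12 and Akr1c13 are close copies that a probe may not separate. Havcr2 was most like Klra2, an Ly49 family receptor (r = 0.88), Clec4e, a lectin receptor of macrophages (r = 0.87), and Sirpb1a and Sirpb1c, near-identical signal regulatory proteins (both r = 0.85). Over the 11 tumours Havcr2 itself had only r = 0.44 with the Havcr1 5' probe, and Timd4 had r = -0.79. Within the 6 tumours of the high set these were 0.67 and 0.68, no lower than the 0.66 of Timd2. No Timd4 reading in that set was well above background. Substitute values at the bottom of the scale enter all of these correlations.

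Timd2 and Havcr1 lie beside each other and are transcribed away from each other, with 32.7 kb between the bounds of the genes in RefSeq's annotation of build GRCm38.p6. Over the tumours they moved together, mostly by the gap between the low and the high set. For this reason the 250 bases before a start of each gene are printed, in the direction of transcription. The start is the most upstream that RefSeq's promoter table of that build lists. The Havcr1 stretch is chr11:46739973-46740222 on the plus strand and is 1 of 3 starts listed. It lies inside the gene as annotated, whose bound is at base 46739822, so it is upstream of the listed start only. The Timd2 stretch is chr11:46707105-46707354 on the minus strand, is 1 of 2 and reaches the bound of the gene at base 46707107. Which start these tumours used was not measured. Capitals mark GAGGAA, a core shared by sites of ETS factors such as Spib, on either strand.
Havcr1 stretch: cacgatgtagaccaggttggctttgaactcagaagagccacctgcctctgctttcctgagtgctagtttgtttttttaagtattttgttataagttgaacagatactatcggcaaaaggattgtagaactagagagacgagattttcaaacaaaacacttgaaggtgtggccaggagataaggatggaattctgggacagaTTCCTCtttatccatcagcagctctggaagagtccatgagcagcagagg
Timd2 stretch: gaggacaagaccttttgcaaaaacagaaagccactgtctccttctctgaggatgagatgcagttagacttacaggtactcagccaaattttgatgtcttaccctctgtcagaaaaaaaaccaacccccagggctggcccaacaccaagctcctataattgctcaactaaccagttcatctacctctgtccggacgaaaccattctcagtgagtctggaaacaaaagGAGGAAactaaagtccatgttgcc
The motif began 49 bases before the listed Havcr1 start, on the opposite strand, and 24 bases before the listed Timd2 start. It was also found 8 bases before the Havcr2 start and in the other Timd2 stretch, and 23.3% of 32851 mouse promoter stretches of the same length hold it. Of the other motifs searched on both strands in all 7 stretches of the 4 genes, the octamer ATGCAAAT, the E-box CACGTG, TTCNNNGAA and TATAAA had 0 matches. They occur in 1.60%, 6.02%, 7.02% and 12.4% of all stretches, and a match or its lack is a description of these letters only.

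Genes that could be measured before or inside the cluster did not share the size of the Havcr1 and Timd2 differences. Within 1 Mb of the outermost TIM probe there were 23 other features, some of them predicted genes or transcripts without a gene name. Of these 13 passed the filter, and limma called 0 of the 13 in each of the 3 comparisons. At an unadjusted p under 0.05 it passed 0 of them between PCL and MCL, against 24.3% of all genes, 3 between PCL and BL, against 17.6%, and 3 between MCL and BL, against 18.4%. Their median difference was 0.23 for PCL minus MCL, -1.09 for PCL minus BL and -1.29 for MCL minus BL, against -0.03, 0.09 and 0.06 over all genes. Med7, a Mediator subunit and the nearest named gene before the cluster at 40.1 kb, differed by -0.54 ± 0.58 (SE), -1.27 ± 0.54 and -0.73 ± 0.58. Sgcd, a sarcoglycan of muscle 182 kb after the cluster, and Dppa1, which lies inside it, did not pass the filter. No other feature after the cluster passed it, so that side was not measured.

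**Figure D4:**
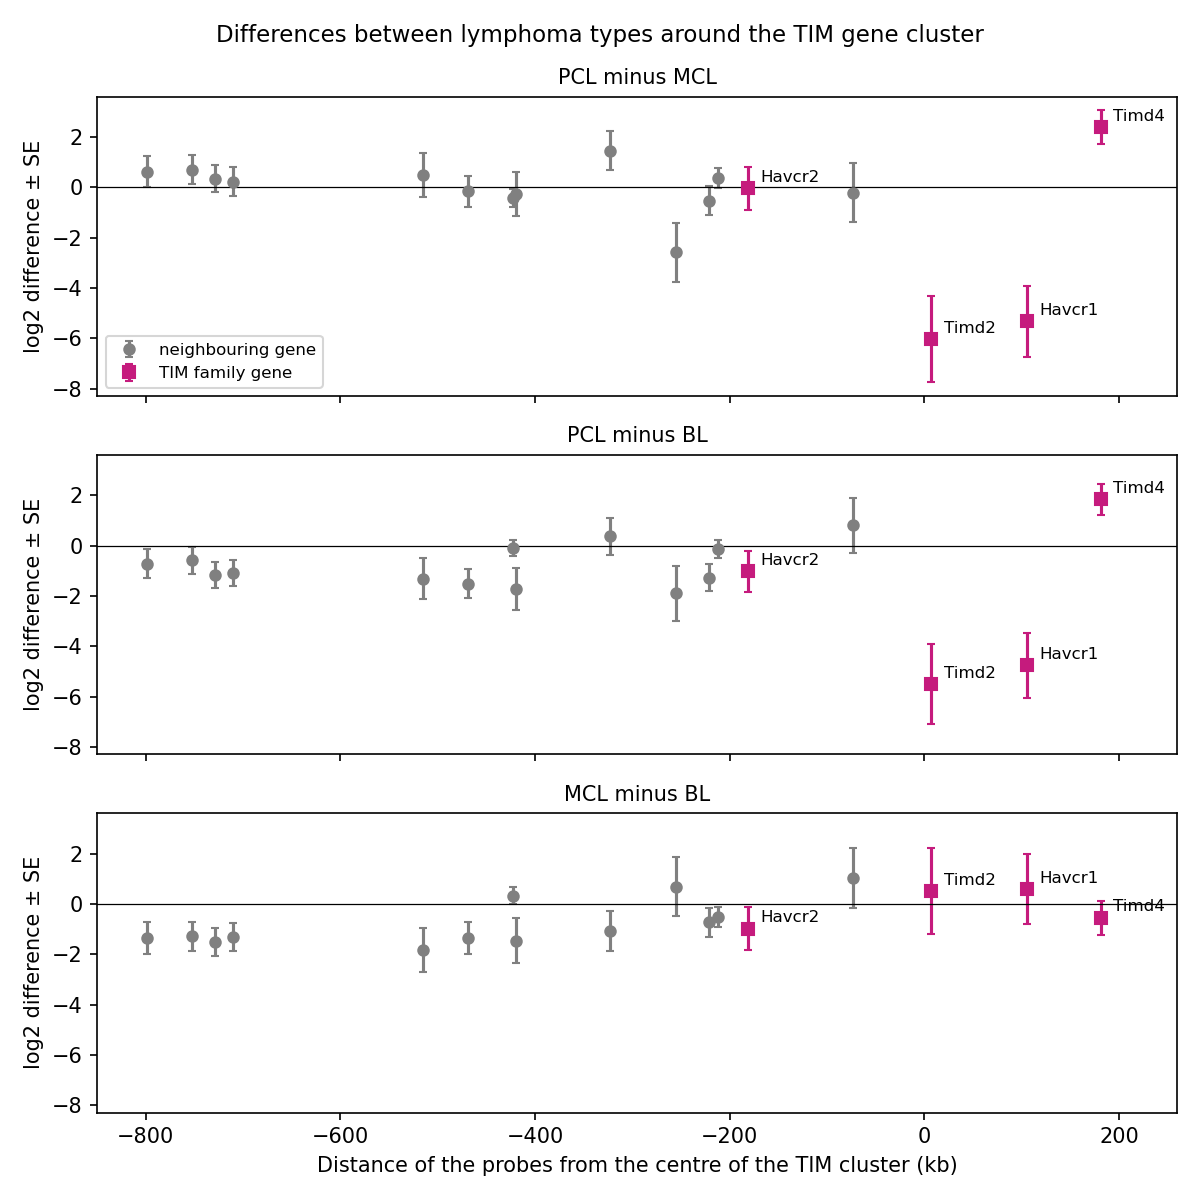
Log2 difference ± SE between types (vertical axes) of the 13 neighbouring features and the 4 TIM genes, against the distance of their probes from the centre of the cluster (horizontal axis, kb). Timd2 and Havcr1 lie at -6.03 and -5.33 in PCL minus MCL, below every neighbour, and near 0 in MCL minus BL.

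Among ligands and signalling partners of the TIM receptors, Fth1 was higher in PCL than in MCL and Sema4a was higher in MCL than in BL. Of 11 genes on this list 10 passed the filter, and Ceacam1 was not found on the array by that name. Between PCL and MCL limma called 1 of 10 higher in PCL, against 2.11% of all genes, and 0 lower, against 4.75%. That gene was Fth1, the ferritin heavy chain that TIM-2 binds, at 7.12 ± 0.20 (SD, n = 4) in PCL and 6.28 ± 0.20 (n = 3) in MCL, a difference of 0.84 (adjusted p = 0.0306). Between PCL and BL 0 of 10 were called, against 0.456% of all genes higher in PCL and 0.203% lower, and 4 passed at an unadjusted p under 0.05, against 17.6% of all genes. Between MCL and BL 1 of 10 was higher in MCL, against 6.42% of all genes, and 0 were lower, against 0.203%. It was Sema4a, a semaphorin that binds TIM-2, with a difference of 1.25 (limma, adjusted p = 0.0237) and levels of 0.37 to 1.14 in MCL and -0.73 to -0.25 in BL. Lgals9, the galectin that binds TIM-3, was uneven within types, at -0.21 ± 1.17 in PCL, -0.78 ± 1.37 in MCL and 0.99 ± 2.00 in BL, and was not called. The median differences of the list were 0.47, 0.21 and -0.16 for PCL minus MCL, PCL minus BL and MCL minus BL, and in a fit on every probe those with PCL turned to -0.0036 and -0.13. Leaving out any MCL, or any PCL but PCL1, ended the call of Fth1, whose limma adjusted p ran from 0.00418 to 0.13 over the settings. Leaving out MCL1, MCL2, BL1, BL2 or BL4 ended that of Sema4a (adjusted p from 0.017 to 0.166).

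Genes that recognise or clear phosphatidylserine had a median above that of all genes in both comparisons with PCL, but not over the members measured on every array. Of 22 such genes 19 passed the filter, with median differences of 1.88 for PCL minus MCL, 1.15 for PCL minus BL and -0.24 for MCL minus BL. Over the 12 genes of the list well above background on all 11 arrays the medians were -0.10 for PCL minus MCL and 0.067 for PCL minus BL, against -0.0077 and 0.067 over all genes so filtered. Between PCL and MCL 3 of 19 were called higher in PCL, against 2.11% of all genes: the integrins Itgb3 (3.82 ± 0.88 SE, limma, adjusted p = 0.0338) and Itgb5 (2.93 ± 0.61, adjusted p = 0.0242), which take part in the uptake of dying cells, and the scavenger receptor Stab2 (3.61 ± 0.82, adjusted p = 0.0316). Cd300a, an inhibitory receptor for the same lipid, was lower in PCL than in MCL by -1.11 ± 0.26 (limma, adjusted p = 0.0368) and higher in MCL than in BL by 1.47 ± 0.26 (adjusted p = 0.0105). Over the settings these differences of Cd300a shrank to as little as -0.32 and 0.57, both with normexp, and that of Stab2 to 1.98 with the authors' table. Between PCL and BL 0 of the 19 were called, against 0.659% of all genes, and 8 passed at an unadjusted p under 0.05, against 17.6%. Gas6, Stab1 and Mertk, with 3.55, 3.78 and 2.47 for PCL minus MCL, were not called. Stab2 was well above background on at most 8 of the 11 arrays and Mertk on at most 5. The sizes of their differences therefore depend in part on readings near background. The macrophage markers moved with this list: all 16 that passed were higher in PCL than in MCL by their fitted difference, with a median of 2.67. Of the 16 markers 2, Vcam1 and Msr1, were called, against 2.11% of all genes. The part of macrophage RNA in the list was not tested. Without PCL1, the tumour with the lowest macrophage sum of the PCL, 9 of the 19 were called between PCL and MCL and 5 between PCL and BL, while the calls over all genes also rose, from 1383 to 2455 and from 133 to 1079. The 4 calls fell to 0 without PCL2, PCL3, PCL4 or MCL2 and to 1 without MCL1 or MCL3.

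Genes linked to regulatory B cells, which TIM-1 marks in mice, had list medians near 0. All 14 passed the filter, and the median differences were -0.08, -0.27 and 0.09 for PCL minus MCL, PCL minus BL and MCL minus BL. Tgfb1, a suppressive cytokine, was the single gene called, 1 of 14 in each comparison. It was lower in PCL than in MCL, as were 4.75% of all genes, and lower in PCL than in BL and in MCL than in BL, as were 0.203% in each. It read -0.45, -0.44, -0.21 and -0.32 in the PCL, 0.29, 0.33 and 0.40 in the MCL and 0.89, 1.21, 0.79 and 1.03 in the BL, so the 3 types did not overlap. Its differences were -0.69 (limma, adjusted p = 0.0311), -1.34 (adjusted p = 0.0105) and -0.65 (adjusted p = 0.0362), and BL2 was the highest of all 11 tumours although it was low in Havcr1. Il10, the cytokine by which such B cells are defined, differed by -1.32 ± 1.34 (SE) for PCL minus MCL and -0.02 ± 1.24 for PCL minus BL and was not called. Leaving out any PCL but PCL1, or any MCL, ended the PCL against MCL call of Tgfb1, and leaving out PCL2 ended that against BL (limma, adjusted p = 0.0515). The MCL against BL call of Tgfb1 was kept only without PCL1 or BL3 among the tumours left out in turn.

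Of 14 other inhibitory receptors and ligands, the group to which Havcr2 belongs by function, 11 passed the filter. Cd244a, a receptor of the SLAM family on NK and T cells, was higher in MCL than in both other types. Of 6 NK and cytotoxic markers that passed the filter 1 was called in the same comparisons, against 4.75% and 6.42% of all genes in its directions. This was Prf1, the perforin of cytotoxic cells, at -0.81 for PCL minus MCL and 1.15 for MCL minus BL. Klrb1c (2.15 and -2.57) and Eomes (0.93 and -0.96) went the other way without a call. The medians of these 6 markers were -0.13 and -0.05. Of 9 T cell markers 1 was also called in both, in the same direction as Prf1 and against the same shares of all genes. The T cell marker medians were -0.07 and 0.62, and 4 of the 9 were higher in PCL than in MCL by their difference. The part of such cells in the Cd244a values was not tested. Cd244a read 2.14, 2.17 and 2.51 in the MCL, 0.97 to 1.45 in the PCL and 0.96 to 1.44 in the BL, with differences of -1.02 for PCL minus MCL (limma, adjusted p = 0.0163) and 1.12 for MCL minus BL (adjusted p = 0.00841). Tnfrsf14, the receptor that binds BTLA, was higher in MCL than in BL by 0.94 ± 0.19 (SE, limma, adjusted p = 0.0171), and by 0.088 where the probes of a gene were averaged. Between PCL and MCL 1 of 11 was lower in PCL, against 4.75% of all genes. Between PCL and BL 0 were called, against 0.659%, and 1 passed at an unadjusted p under 0.05, against 17.6%. Between MCL and BL 2 were higher in MCL, against 6.42%, which is the direction of 1296 of all 1337 calls. The list medians were -0.23, 0.10 and 0.43. Pdcd1, Lag3 and Tigit, which mark exhausted T cells beside TIM-3, differed by -0.74 ± 1.49 (SE), -1.01 ± 1.39 and -0.14 ± 1.11 for PCL minus MCL and were not called. Leaving out PCL2, PCL4 or MCL3 ended the PCL against MCL call of Cd244a (limma, adjusted p up to 0.0681), and leaving out MCL1 or MCL2 ended that of Tnfrsf14.

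**Figure D5:**
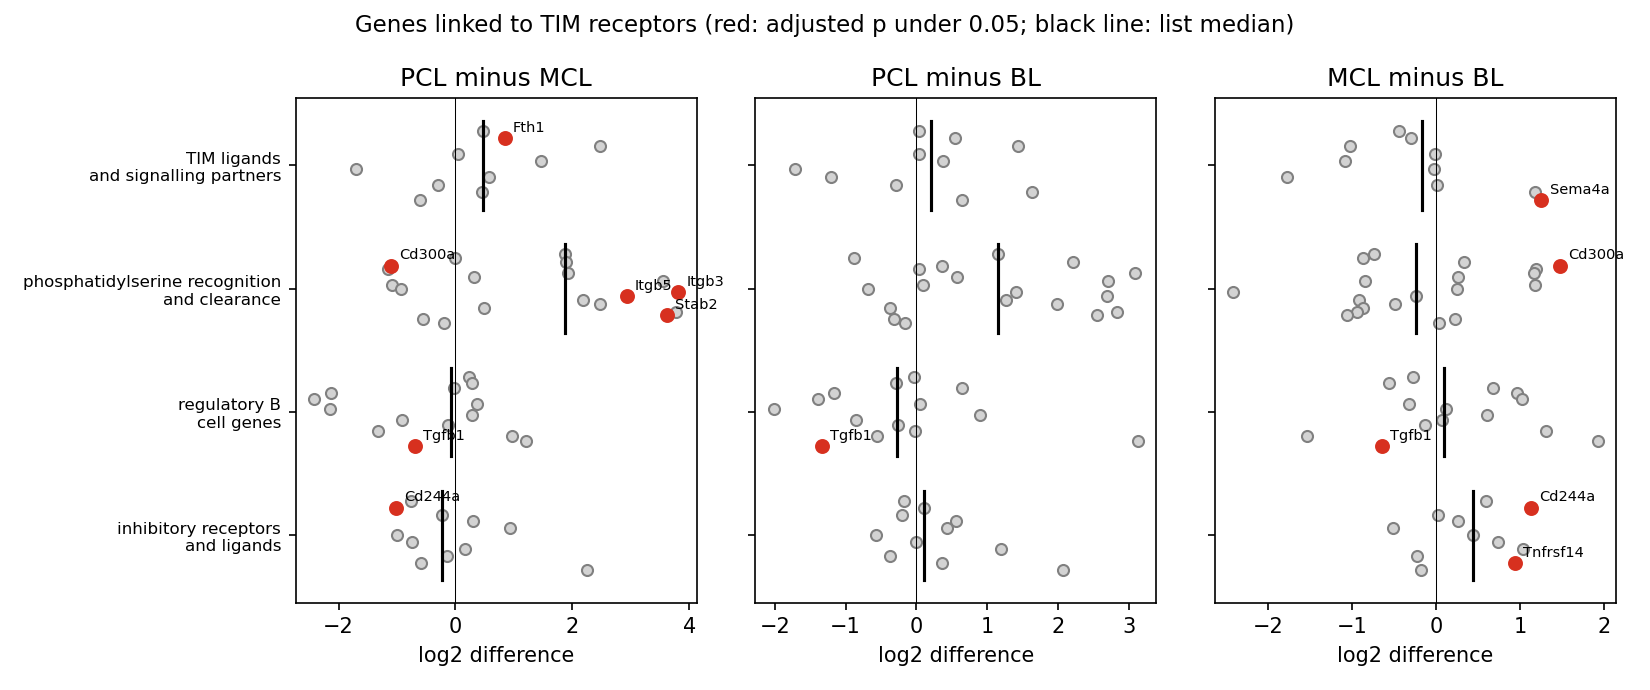
Log2 difference between types (horizontal axes) of each gene that passed the filter in the 4 lists, with called genes in red and named and the list median as a black line. The phosphatidylserine list has its median at 1.88 in PCL minus MCL and 1.15 in PCL minus BL, while the medians of the other lists lie between -0.27 and 0.47.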

How the data were processed

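RNA of each tumour was labelled with Cy3 and hybridised to a one-colour Agilent mouse array. The authors' scanner files give spot brightness as an intensity on a linear scale, read with Feature Extraction 10.7.3.1 of Agilent (per the file headers) without normalization between arrays. The deposited value table holds log2 values of the same arrays, found from the data to have the ranks of the median spot signal (Spearman correlation of 1), with array medians of 7.25 to 7.26; it was used as an alternative, and how the authors made it was not given in the sources used here. Substitute values for spots not above background make up 21.5% to 29.2% of the spots of an array, so folds of dim probes depend on them.

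Spots marked as outliers were left out, processed intensities were divided by the 75th percentile of the array and put on the log2 scale, and a probe was kept where 3 or more arrays had it well above background (25296 of 39383). The brightest probe on average stood for a gene. limma 3.58.1 in R 4.3.3 fitted a mean per type over all 11 arrays (8 residual degrees of freedom), and a gene was called where its Benjamini-Hochberg adjusted p over 20176 genes was under 0.05. The fit was tested on simulated data. Names came from accessions, symbols or older symbols of RefSeq's GRCm38.p6 table for 29690 probes and from the files for 9739.

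The members, lists and tests were chosen with earlier results of these data known. Named were all members, the called genes of each list (or its 3 largest PCL minus MCL differences where none was called), the nearest named gene on each side of the cluster, and the 5 named genes with an SD of at least 1 most correlated with each member; other genes were added after their values were seen. Some genes that this rule or the marker lists name are not reported here. Replicate numbers are array positions. Tumours of different types with the same number had a mean correlation of 0.08 in their deviations, and 3 of 10 pairs exceeded 0.1. Those with different numbers had a mean of -0.03, and 3 of 30 pairs exceeded 0.1. The numbers were not used as pairs in the main fit, and a fit with them as a block is given below.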

Additional observations from a re-analysis of the deposited data

Results flagged for a closer look

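BL2 stood apart from the other 3 Burkitt lymphomas on the Timd2 5' probe, with a level of -2.22 against 3.17 for the nearest of them. The gap is 0.85 of the whole range of the group, above Dixon's 95% critical value for 4 samples. Chance alone marks about 1 in 20 groups in this way, and 1 of 12 groups of probes and types tested was marked.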

How the results depend on the processing

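Results were recomputed under 13 other settings and with each of the 11 arrays left out in turn; the members did not pass the strictest filter (well above background on all 11 arrays), which leaves 23 settings for them. Havcr1 kept its sign in both comparisons with PCL in all 23, and so did Timd2 and Timd4. In some of these settings the difference could not change, such as where a tumour of the type not compared was left out. Nor could it where only the fit of the spread changed. Those settings are no check on the sign, and Havcr1 was chosen on its difference between types. Numbers of called genes for PCL against MCL, PCL against BL and MCL against BL were 1383, 133 and 1337 as reported. They were 197, 13 and 64 with normexp and 390, 65 and 361 with the replicate number as a block, which called none of the members. Array weights gave 4429 and 2181 for the comparisons with PCL, no filter on dim probes 684 and 85, quantile normalization 771 for MCL against BL, the authors' values 680 for the same comparison, centring on the median 531 for PCL against BL and 301 for MCL against BL, and a fit of only the types compared 740 for PCL against MCL and 290 for MCL against BL. With 1 array left out they ranged over 330 to 2455, 5 to 1079 and 683 to 1365, the extremes being those without PCL2 and PCL1, without PCL2 and PCL1, and without MCL1 and PCL1. Each PCL and each MCL moved the first count by over 1.5 times, each PCL and BL2, BL3 and BL4 the second, and MCL1, MCL2 and BL2 the third. Havcr1 PCL minus MCL moved to -3.13 with normexp and -3.85 with the authors' table, and with 1 array left out it ranged from -5.97 to -4.60. Timd2 PCL minus MCL, -6.77 to -4.66 with 1 array left out, was called at -4.94 with the authors' table (limma, adjusted p = 0.0447), at -6.83 with array weights (0.0379) and without BL2. Nothing is read from the call without BL2, the tumour that stood apart on this probe. Over the 23 settings the limma adjusted p of Timd2 ran from 0.0352 to 0.158. Timd4 was called with array weights at 2.72 for PCL minus MCL (0.0108) and at 2.06 for PCL minus BL (0.0397), and without PCL1 or BL2 for PCL minus MCL, which ran from 2.04 to 2.79 with 1 array left out; its adjusted p ran from 0.0108 to 0.333 and from 0.0397 to 0.928. Havcr2 turned to 0.63 with normexp and 0.71 with array weights for PCL minus MCL (-0.60 to 1.04 with 1 array left out) and to 0.024 with normexp for PCL minus BL. Without BL2, MCL minus BL turned to -0.76 for Havcr1 and -0.92 for Timd2; with 1 array left out the ranges were -0.76 to 1.30 and -0.92 to 1.19. Among the calls between PCL and BL 69.2% were higher in PCL as reported, 57.9% with quantile normalization, 50.6% with the authors' table, 38.5% with normexp and 20.5% with centring on the median, which moved the median of all genes from 0.09 to -0.17; between PCL and MCL the share was 30.7% and 46.2% with normexp. Of 24 settings (23 for Stab2), Fth1, Stab2, Cd300a and Tgfb1 each kept the PCL against MCL call in 13 settings, Itgb3 in 15, Itgb5 in 18 and Cd244a in 20; between MCL and BL Sema4a kept it in 14, Cd300a and Cd244a in 20, Tnfrsf14 in 17 and Tgfb1 in 8. None of their differences turned, but those of Cd300a shrank to -0.32 (PCL minus MCL) and 0.57 (MCL minus BL) with normexp, that of Stab2 to 1.98 with the authors' table and that of Tnfrsf14 to 0.088 with the mean of the probes of a gene. The cause of these changes was not tested. Levels near background, such as all Havcr2 and Timd4 values, are limited by the signal over background.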
